A study of Mus musculus with 8 samples.

Results

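The 9 genes described here encode membrane transporters that move organic anions, organic cations, drugs and bile lipids across the hepatocyte surface. They were chosen by symbol, as the rows of the deposited gene count table whose GRCm38 gene name was on a list of 9, out of 46078 gene rows. The uptake group held 5 genes, *Slco1a1*, *Slco1a4*, *Slco1b2*, *Slco2b1* and *Slc22a7*. The export group held 4, *Abcc2*, *Abcc3*, *Abcb4* and *Abcg2*. All 9 were found in the table, and all 9 passed the filter on low counts, which kept 13856 genes for testing.

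The livers came from LWT mice (Alb_cre- Rbfox2 LoxP/LoxP, 4 livers) and LΔRbfox2 mice (Alb_cre+ Rbfox2 LoxP/LoxP, 4 livers). Both genotypes carried the LoxP alleles, so they differed by the Albumin-cre transgene, which deletes *Rbfox2* in hepatocytes and leaves other liver cells with the gene. All 8 livers were from animals on a control diet (CD) and fasted for 16 h, with the diet begun at 8 weeks of age in the study's methods. Time on the diet was 12 weeks by the labels and 16 to 22 weeks by the methods, which name male mice unless otherwise stated. Poly(A) RNA was sequenced with 1 library per liver. RBFOX2 is an RNA-binding protein that controls alternative splicing, and the comparison asks whether the amount of each transporter mRNA differed when hepatocytes lacked it. The labels number the samples of a genotype without naming the animals, so *P* values measure the spread between these samples.

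Uptake from portal blood and export into bile are the opposite ends of hepatic clearance. On the sinusoidal face, organic anion transporting polypeptides (OATPs, the *Slco* genes) and organic anion transporter 2 (OAT2, *Slc22a7*) bring bile acids, bilirubin, hormone conjugates and many drugs into the cell. On the canalicular face, ATP-binding cassette pumps move conjugates (MRP2, *Abcc2*), phosphatidylcholine (MDR2, *Abcb4*) and drugs and urate (BCRP, *Abcg2*) into bile, while MRP3 (*Abcc3*) returns conjugates to blood across the basolateral membrane.

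Of the uptake genes, 3 are neighbours on chromosome 6 of GRCm38. *Slco1b2* (ENSMUSG00000030236) lies on the plus strand at chr6:141629518-141686646, *Slco1a4* (ENSMUSG00000030237) on the minus strand at chr6:141805440-141856199, and *Slco1a1* (ENSMUSG00000041698) on the minus strand at chr6:141907282-141946962. With *Slco1c1*, *Slco1a6* and *Slco1a5* they make a run of 6 protein-coding *Slco1* genes over 799 kb. Because these neighbours differed in how they varied between livers, the bases just before their annotated starts are shown, together with those of *Abcc2*, the exporter with the widest spread between livers. The sequences are from RefSeq on GRCm38.p6, which held 7 of the 9 genes (all but *Slc22a7* and *Abcc3*), and each reads 5′ to 3′ on the strand of its gene. They cover chr6:141946963-141947212 (minus strand, *Slco1a1*), chr6:141856221-141856470 (minus strand, *Slco1a4*), chr6:141629268-141629517 (plus strand, *Slco1b2*) and chr19:43782058-43782191 (plus strand, *Abcc2*, 134 bases that lie before its GENCODE start too). Capitals mark exact matches to AGGTCA (a nuclear receptor half-site), GTTAAT (an HNF1 half-site), TTCNNNGAA (a STAT site) and TGACNNNGC (an antioxidant response element core) on either strand, and to TATAA on the strand shown, where neighbouring TATAA matches run together.
Slco1a1: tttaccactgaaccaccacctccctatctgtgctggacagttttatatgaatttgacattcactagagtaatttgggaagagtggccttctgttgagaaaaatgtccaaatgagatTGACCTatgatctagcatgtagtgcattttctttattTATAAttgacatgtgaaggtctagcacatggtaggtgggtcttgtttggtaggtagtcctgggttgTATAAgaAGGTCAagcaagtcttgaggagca
Slco1a4: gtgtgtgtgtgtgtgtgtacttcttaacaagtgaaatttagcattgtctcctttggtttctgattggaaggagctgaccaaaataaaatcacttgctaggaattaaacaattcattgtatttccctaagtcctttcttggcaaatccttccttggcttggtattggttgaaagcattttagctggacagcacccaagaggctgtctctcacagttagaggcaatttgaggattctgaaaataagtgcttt
Slco1b2: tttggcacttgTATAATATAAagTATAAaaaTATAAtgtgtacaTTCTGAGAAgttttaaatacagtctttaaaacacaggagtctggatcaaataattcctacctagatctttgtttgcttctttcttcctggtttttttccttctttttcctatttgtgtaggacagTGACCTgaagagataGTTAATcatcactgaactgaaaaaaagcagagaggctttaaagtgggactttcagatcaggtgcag
Abcc2: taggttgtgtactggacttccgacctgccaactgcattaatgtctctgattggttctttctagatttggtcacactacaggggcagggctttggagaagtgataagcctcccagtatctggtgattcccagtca

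The 250 bases before the *Slco1a1* start held 2 matches to AGGTCA and 2 to TATAA, with the nearer TATAA beginning 31 bases before the start. The same window of *Slco1b2* held 1 AGGTCA, 1 GTTAAT and 1 TTCNNNGAA match, and 4 TATAA matches that all began more than 200 bases away. The *Slco1a4* window held none of the 5 motifs. In *Abcc2*, the stretch printed held none, and the bases after it up to the RefSeq start held 1 TGACNNNGC match (TGACATAGC, beginning 98 bases before that start) and 1 AGGTCA match (beginning 49 bases before it). Of all 32851 promoter windows of this length in the table, 14.0% held AGGTCA, 6.43% GTTAAT, 7.02% TTCNNNGAA, 10.2% TGACNNNGC and 16.0% TATAA. A match of letters describes the sequence alone.

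The libraries held between 37482458 and 56177588 counts, so that 3 counts correspond to 0.0468 to 0.0929 CPM (counts scaled to a common library size, here after TMM normalization, which corrects for the make-up of each library), and this covers counting error only. *Rbfox2*, the deleted gene (minus strand, chr15:77078990-77307004), was at 17.1, 10.4, 11.4 and 18.3 CPM in LWT livers 1 to 4 and at 4.61, 6.09, 2.24 and 3.19 CPM in LΔRbfox2 livers 1 to 4, with no overlap. Hepatocyte markers such as *Apob* and *Apoa1* summed to between 52290 and 77940 CPM in every liver, while the 6 lymphocyte markers together reached at most 1.87 CPM. LΔRbfox2 livers 3 and 4 stood apart by their TMM factors (0.724 and 0.776, against 1.02 to 1.14 in the other 6 livers). The 4 haemoglobin genes summed to 338 to 681 CPM in LWT and 589 to 1480 CPM in LΔRbfox2 livers, highest in LΔRbfox2 livers 3 and 4. The livers also differed in the balance of long and short transcripts, taken as the median centred log2 CPM of 1763 genes with a transcript of at least 6 kb minus that of 3751 genes of at most 2 kb. This difference was 0.75, −0.44, 0.13 and 0.64 in LWT livers 1 to 4 and −0.13, 0.51, −0.80 and −0.65 in LΔRbfox2 livers 1 to 4. It is given because *Abcc2*, itself among the long genes, followed it from the lowest liver to the highest. The other exporters did not keep that order of livers, and the balance was chosen after the values were seen.

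*Slco1b2* mRNA was the most abundant of the 9 relative to its length. In LWT livers, *Slco1b2* stood at 147 ± 23.5 CPM per kb of exon (SD, n = 4), and its lowest liver (125) lay above the highest liver of each other member. A middle group followed, with *Abcc2* at 39.1 ± 13.2, *Abcb4* at 33.1 ± 2.82, *Slco1a1* at 32.8 ± 3.26 and *Abcc3* at 28.9 ± 5.74 CPM per kb (SD, n = 4 each), and the livers of these 4 genes overlapped. *Slco1a4* (12.9 ± 1.95 CPM per kb) and *Slco2b1* (11.9 ± 1.62 CPM per kb) overlapped each other, as did *Abcg2* (5.92 ± 0.802 CPM per kb) and *Slc22a7* (5.43 ± 3.23 CPM per kb). With the longest transcript as the length, *Abcb4* moved to 76.2 CPM per kb and stood alone in the second place after *Slco1b2* (219.7), since the exons annotated for *Abcb4* span 9383 bases and its longest transcript 4079. *Slco1b2* made up 65.1 to 75.3% of the summed length-scaled level of the 5 uptake genes in LWT livers and 70.02 to 79.1% in LΔRbfox2 livers.

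**Figure D1:**
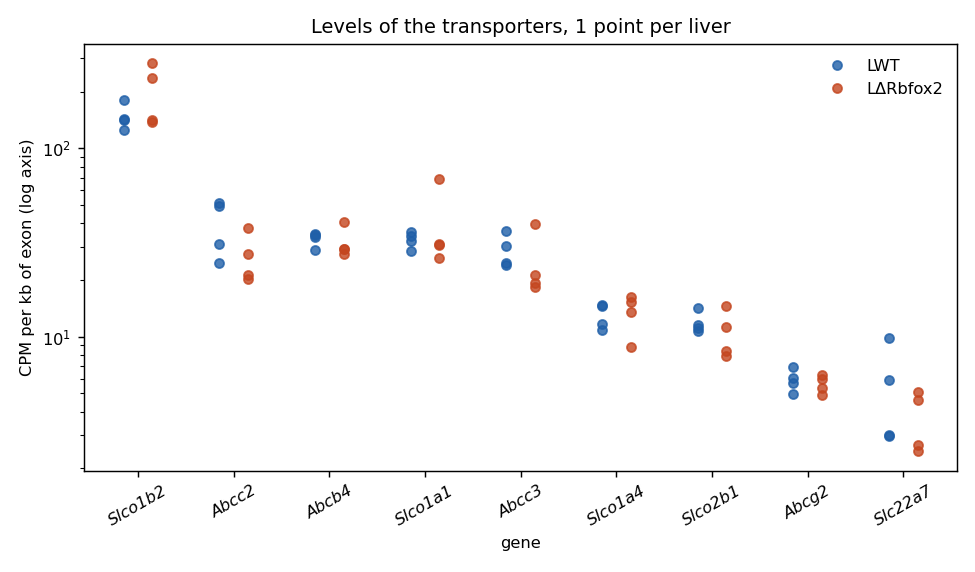
Level of each transporter mRNA in CPM per kb of exon (log axis), 1 point per liver, LWT in blue and LΔRbfox2 in orange, ordered by the LWT mean. *Slco1b2* lies between 125 and 181 CPM per kb in LWT livers and *Slc22a7* between 2.99 and 9.82.

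None of the 9 transporter mRNAs passed the threshold for a difference between genotypes. Of the 5 uptake genes, 0 passed an adjusted *P* of 0.05 in the quasi-likelihood test of edgeR (Benjamini–Hochberg, over 13856 genes), and of the 4 export genes 0 passed. Over all genes tested, 0 genes (0%) passed, against 0 with limma-voom and 10 with DESeq2, none of them a member. The deleted gene *Rbfox2* itself had an adjusted *P* of 0.504 in edgeR and 0.57 in limma-voom, and passed only in DESeq2 (adjusted *P* = 2.3e-04). A gene that did not pass can therefore not be called unchanged. At an unadjusted *P* under 0.05 in edgeR, 1102 genes (7.95%) were higher and 254 (1.83%) lower in LΔRbfox2 livers, and 0 members were among either. The 4 livers of each genotype overlapped for every member, where 146 genes (1.05%) lay wholly higher and 170 (1.23%) wholly lower in LΔRbfox2 livers. In whole liver, fewer cells of a type and less RNA per cell cannot be told apart.

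**Figure D2:**
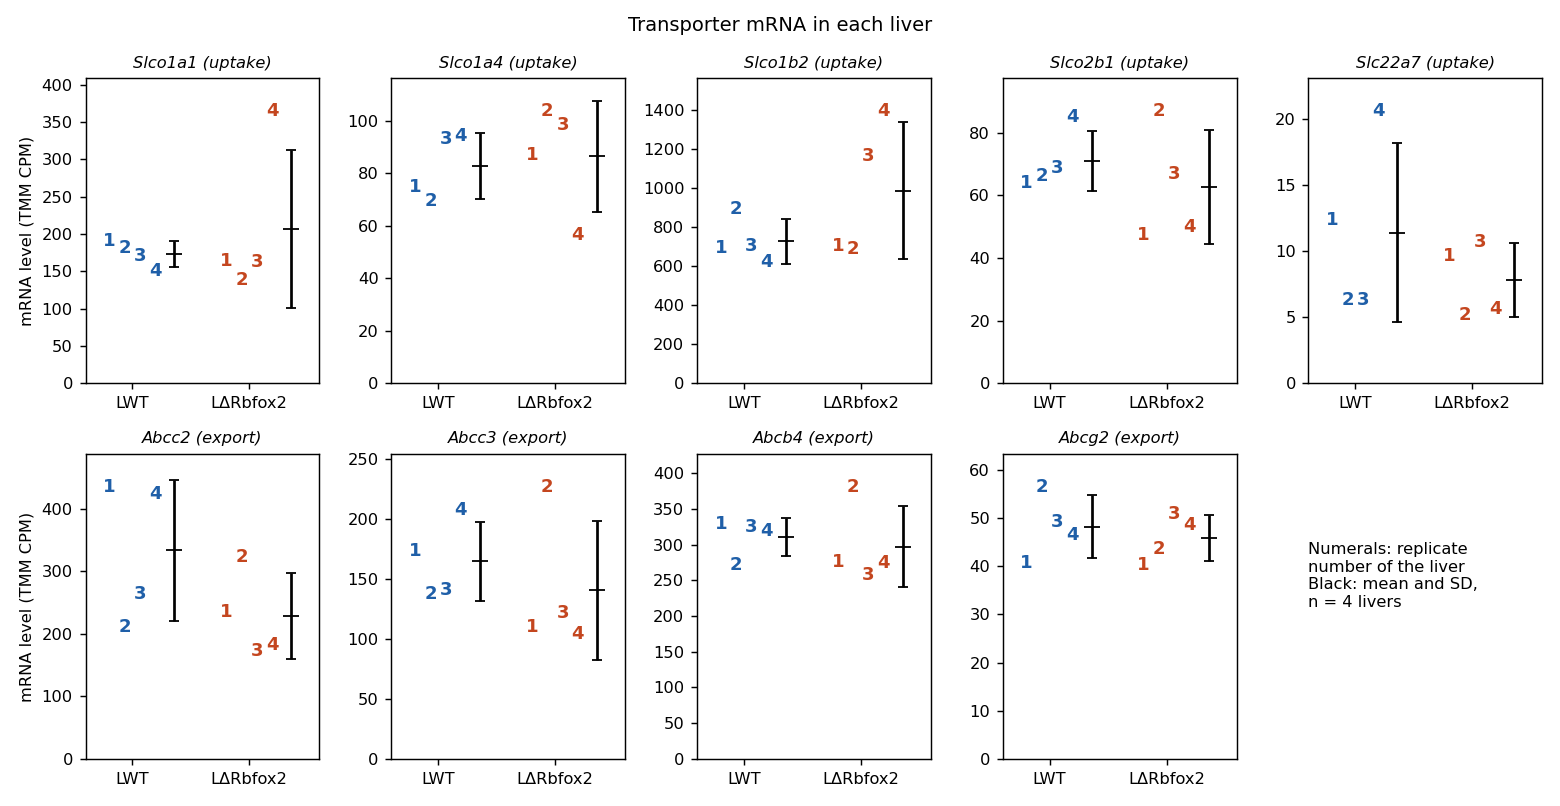
Level of each member in TMM CPM (linear axis from 0) in LWT and LΔRbfox2 livers, with numerals for the replicate number and black marks for the mean and SD of 4 livers. The genotypes overlap in every panel, and LΔRbfox2 liver 4 stands alone for *Slco1a1* at 365 CPM.

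The chromosome 6 neighbours *Slco1b2*, *Slco1a1* and *Slco1a4* differed in which livers were highest. OATP1B2, the product of *Slco1b2*, is the mouse counterpart of the human OATP1B transporters that take up bilirubin conjugates and statins. *Slco1b2* was at 694, 890.1, 704 and 618 CPM in LWT livers 1 to 4 and at 699.7, 684, 1162 and 1392 CPM in LΔRbfox2 livers 1 to 4. LΔRbfox2 livers 3 and 4 lay above all LWT livers, while LΔRbfox2 livers 1 and 2 fell within them. The means were 727 ± 116 CPM in LWT and 984.5 ± 351 CPM in LΔRbfox2 livers (SD, n = 4), a log2 fold change of 0.44 in edgeR with an adjusted *P* of 0.548. The standard error from limma-voom was 0.26 and its 95% interval ran from −0.19 to 0.97. The two-sided exact permutation test gave *P* = 0.286, where the smallest value 4 livers against 4 allow is 0.0286. The 2 high livers were those of low TMM factor. With libraries scaled by their totals alone, the median log2 fold change over all genes was −0.23, against −0.015 with TMM. *Slco1b2* was then at 709, 986, 778 and 695.5 CPM in LWT and 775.5, 780.4, 842 and 1080 CPM in LΔRbfox2 livers, so that only LΔRbfox2 liver 4 remained above the LWT livers. The log2 fold change was then 0.13, it was 0.16 once every library was corrected for GC content and gene length, and it was −0.096 with LΔRbfox2 livers 3 and 4 left out.

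*Slco1a1* encodes OATP1A1, a sinusoidal carrier of steroid conjugates and bile acids that is known for its male-predominant expression in mouse liver. *Slco1a1* was at 190.3, 181.5, 171 and 150.4 CPM in LWT livers 1 to 4 and at 163, 138, 162 and 365 CPM in LΔRbfox2 livers 1 to 4. LΔRbfox2 liver 4 stood above every other liver, LΔRbfox2 liver 2 lay under the LWT livers, and LΔRbfox2 livers 1 and 3 lay among them. The edgeR log2 fold change was 0.26 (adjusted *P* = 0.704), and it was −0.16 in the fit without LΔRbfox2 liver 4. The limma-voom estimate was 0.15, with a 95% interval from −0.48 to 0.79. *Slco1a4* encodes OATP1A4, a carrier of bile acids and cardiac glycosides. It was at 74.8, 69.5, 92.9 and 94.2 CPM in LWT livers and at 87.0, 103.7, 98.6 and 56.3 CPM in LΔRbfox2 livers, with LΔRbfox2 liver 4 the lowest of all 8. Its log2 fold change was 0.06 in edgeR (adjusted *P* = 0.909, limma-voom 95% interval −0.46 to 0.53). The ratio of *Slco1a1* to *Slco1a4*, both per kb, was 1.94 to 3.17 in LWT livers, 1.62 to 2.28 in LΔRbfox2 livers 1 to 3 and 7.88 in LΔRbfox2 liver 4. This ratio within a library does not depend on the scaling of libraries. Of the windows of 100 bases, the read length, in the longest transcript, 0.867% of those of *Slco1a1* and 1.10% of those of *Slco1a4* also occurred in each other or in *Slco1a5*, so few of their reads could be shared.

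*Slco2b1* encodes OATP2B1, which carries sulfated steroids and statins and is also expressed outside the liver. *Slco2b1* (ENSMUSG00000030737, minus strand, chr7:99657804-99711340) was at 63.9, 66.2, 68.7 and 85.1 CPM in LWT livers and 47.4, 86.9, 66.7 and 49.9 CPM in LΔRbfox2 livers. LΔRbfox2 livers 1 and 4 lay under the LWT livers and LΔRbfox2 liver 2 above them. The edgeR log2 fold change was −0.18 (adjusted *P* = 0.717, limma-voom 95% interval −0.70 to 0.27). Antisense genes overlap it, *Gm15635* over 7.91% and *Gm34280* over 1.31% of its exon bases, and the strand setting of the counting is not given, so reads there are uncertain. *Slc22a7* (ENSMUSG00000067144, minus strand, chr17:46432183-46438457) encodes OAT2, a carrier of nucleotides, creatinine and drugs. It was at 12.4, 6.31, 6.28 and 20.6 CPM in LWT livers and at 9.66, 5.18, 10.7 and 5.60 CPM in LΔRbfox2 livers. It had the largest spread of the 9, 3.98 times between its lowest and highest liver, and LWT livers 1 and 4 were the 2 highest. The edgeR log2 fold change was −0.55 (adjusted *P* = 0.593), and −0.095 without LWT liver 4 (unadjusted *P* = 0.792). The limma-voom estimate was −0.44, with a 95% interval from −1.36 to 0.48.

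*Abcc2*, the canalicular pump for bilirubin glucuronide and glutathione conjugates, had the largest difference among the exporters. *Abcc2* (ENSMUSG00000025194, plus strand, chr19:43782192-43840740) was at 435, 211, 264 and 424 CPM in LWT livers 1 to 4 and at 234, 323, 173 and 182 CPM in LΔRbfox2 livers 1 to 4. LΔRbfox2 livers 3 and 4 lay under all LWT livers, LΔRbfox2 liver 2 came next after LWT livers 1 and 4, and the genotypes overlapped. The means were 333 ± 113 CPM in LWT and 228 ± 68.7 CPM in LΔRbfox2 livers (SD, n = 4), a log2 fold change of −0.55 in edgeR with an unadjusted *P* of 0.0877 and an adjusted *P* of 0.527. The limma-voom standard error was 0.29 and its 95% interval ran from −1.18 to 0.11, and the exact permutation test gave *P* = 0.200. From the lowest to the highest, the 8 livers stood in the same order for *Abcc2* as for the balance of long and short transcripts. That order was shared by 71 of all 13856 genes tested (0.512%) and by 25 of the 1763 with long transcripts (1.42%). *Abcc2* has a transcript of 8027 bases. With each library corrected for GC content and gene length, its log2 fold change was −0.49 (edgeR, unadjusted *P* = 0.0575), and with LΔRbfox2 livers 3 and 4 left out it was −0.27 (unadjusted *P* = 0.438).

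*Abcc3* encodes MRP3, the basolateral pump that is known to be induced when bile flow is blocked. *Abcc3* (ENSMUSG00000020865, minus strand, chr11:94343295-94392997) was at 173, 137.5, 141 and 207 CPM in LWT livers and at 110.1, 227, 121 and 104.5 CPM in LΔRbfox2 livers. LΔRbfox2 liver 2 was the highest of all 8 and the other 3 LΔRbfox2 livers were the lowest of all. The edgeR log2 fold change was −0.23 (adjusted *P* = 0.712, limma-voom 95% interval −0.88 to 0.30), and it was −0.56 without LΔRbfox2 liver 2 (unadjusted *P* = 0.0166, adjusted *P* = 0.136). In that fit 3475 genes over all had an unadjusted *P* under 0.05, against 1356 with every liver kept. The 3 highest livers were LWT livers 1 and 4 and LΔRbfox2 liver 2, the same as for *Abcc2* and the same as those in which long transcripts stood highest. After the correction for GC content and gene length the log2 fold change was −0.042. The part of transcript length in these differences was not tested further.

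**Figure D3:**
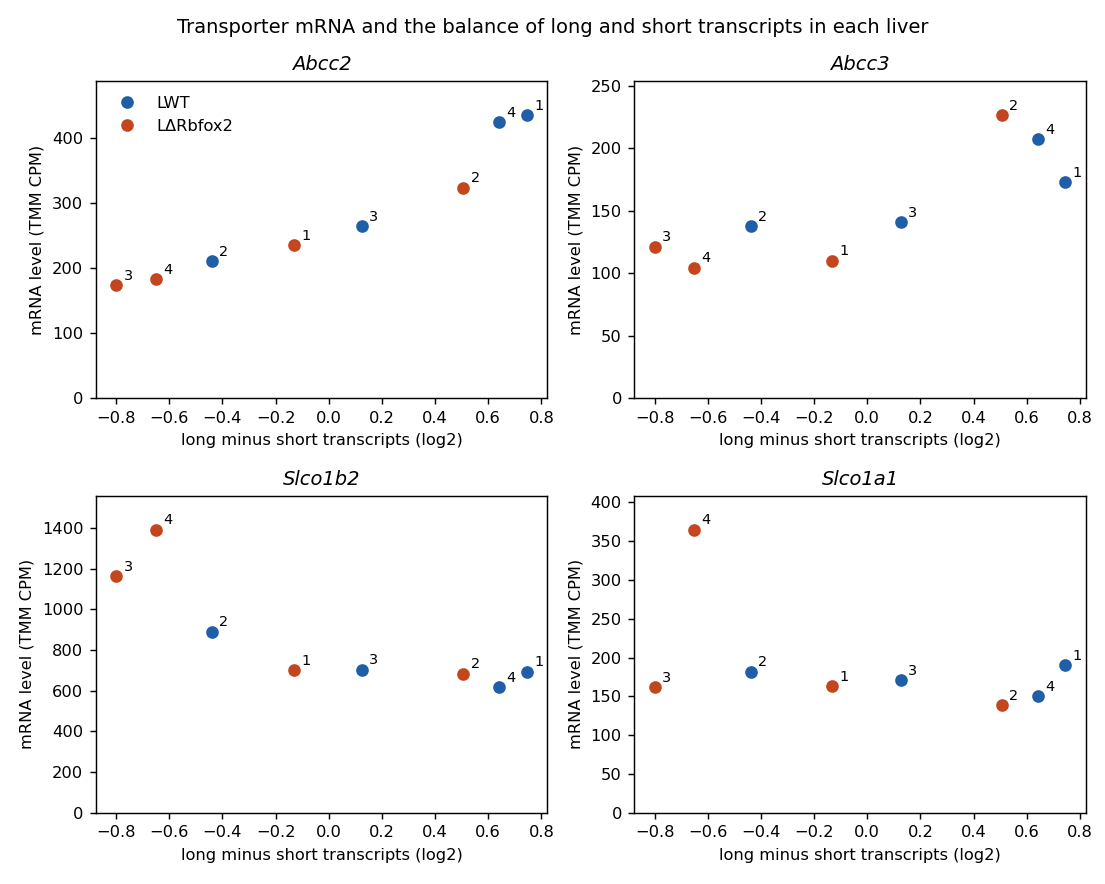
Level of *Abcc2*, *Abcc3*, *Slco1b2* and *Slco1a1* (TMM CPM, linear axis from 0) against the balance of long and short transcripts (log2) in each liver, with LWT in blue, LΔRbfox2 in orange and numerals for the replicate number. *Abcc2* climbs with the balance from 173 to 435 CPM, and *Slco1b2* is highest in the 2 livers at −0.80 and −0.65.

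*Abcb4* and *Abcg2* had the narrowest intervals. *Abcb4* (ENSMUSG00000042476, plus strand, chr5:8893717-8959231), whose product supplies phosphatidylcholine to bile and protects the bile ducts from bile salts, was at 328, 271.5, 324.5 and 319 CPM in LWT livers and at 275, 381, 257 and 274 CPM in LΔRbfox2 livers. LΔRbfox2 liver 2 was again the highest of all. The edgeR log2 fold change was −0.07 (adjusted *P* = 0.875, limma-voom 95% interval −0.47 to 0.31). *Abcg2* (ENSMUSG00000029802, plus strand, chr6:58584523-58695676) was at 40.7, 56.5, 49.2 and 46.6 CPM in LWT livers and at 40.2, 43.7, 51.0 and 48.7 CPM in LΔRbfox2 livers. It varied least of the 9, by 1.41 times between its lowest and highest liver, and its log2 fold change was −0.07 (adjusted *P* = 0.840, limma-voom 95% interval −0.43 to 0.29).

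**Figure D4:**
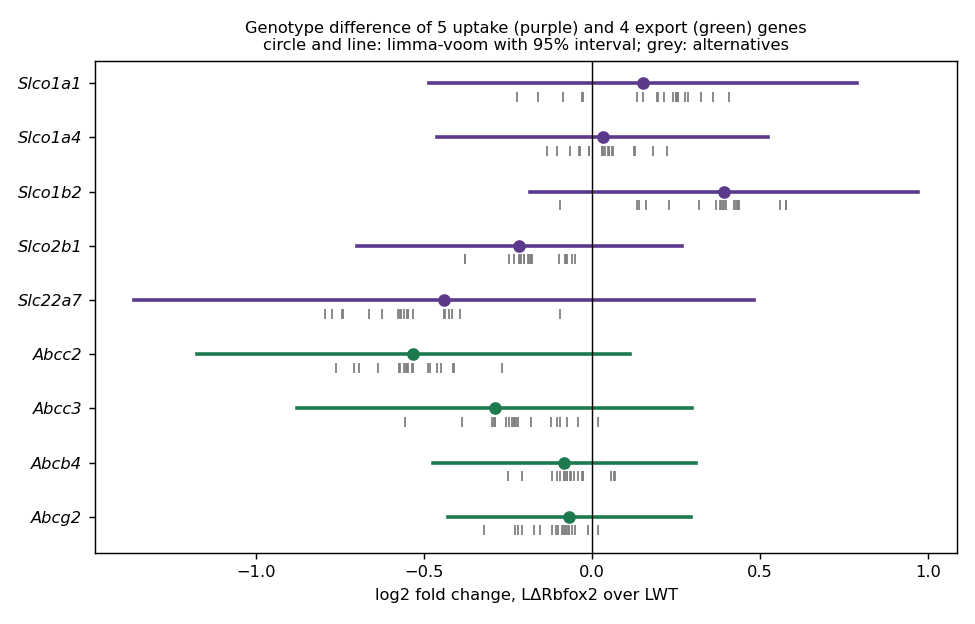
Log2 fold change (LΔRbfox2 over LWT) of the 5 uptake (purple) and 4 export (green) genes. Circles and lines show the limma-voom estimate and its 95% interval and grey ticks the value under each alternative setting, and every interval crosses 0.

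Uptake and export were then set side by side. Of the 5 uptake genes, 3 had a log2 fold change above 0 and 2 under 0, with a median of 0.06, but with library totals, with the correction for GC content and gene length or without LΔRbfox2 livers 3 and 4 only 1 was above 0. Of the 4 export genes, all 4 were under 0, with a median of −0.15, and 1 was above 0 after the correction for GC content and gene length and 2 without LΔRbfox2 livers 3 and 4. Over all 13856 genes tested, 6710 were above 0 and 7146 under 0, with a median of −0.015, which was −0.23 with library totals. The summed length-scaled level of uptake genes divided by that of export genes was 1.69, 2.83, 2.12 and 1.53 in LWT livers 1 to 4 and 2.46, 1.604, 3.96 and 4.96 in LΔRbfox2 livers 1 to 4. LΔRbfox2 livers 3 and 4 stood above all LWT livers, and LΔRbfox2 livers 1 and 2 lay among them. Since this ratio is taken within a library, the scaling of libraries does not enter it, but the balance of long and short transcripts may. That balance was lowest in LΔRbfox2 livers 3 and 4 (−0.80 and −0.65) and highest in LWT livers 1 and 4 (0.75 and 0.64). Its part in the ratio was not tested.

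**Figure D5:**
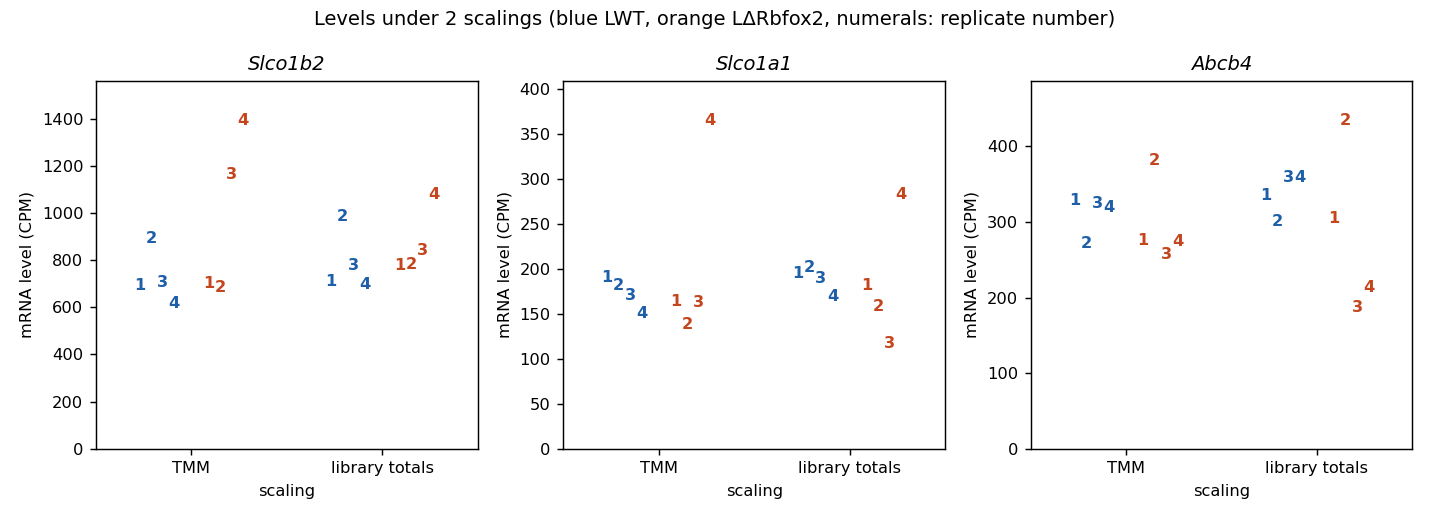
*Slco1b2*, *Slco1a1* and *Abcb4* in each liver (CPM, linear axis from 0) after TMM normalization and by library totals alone, with LWT in blue, LΔRbfox2 in orange and numerals for the replicate number. *Slco1b2* in LΔRbfox2 liver 3 drops from 1162 to 842 CPM, within the LWT range of 695.5 to 986 CPM.

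The wider transporter families held no gene past the adjusted threshold. Over all genes tested, 6710 had a log2 fold change above 0 and 7146 under 0. At an unadjusted *P* under 0.05 in edgeR, 7.95% were higher and 1.83% lower in LΔRbfox2 livers. Of 11 other *Slco* genes, 4 were tested and 1 had a log2 fold change above 0 (median −0.16, and 0.036 after the correction for GC content and gene length). *Slco1a6*, the next gene along in the chromosome 6 run, was at 40.9 CPM in LWT liver 1 and at 3.14 to 12.1 CPM in the other 7 livers. Of 25 other *Slc22a* genes 14 were tested, 7 above and 7 under 0 (2 above and 12 under with library totals, 4 and 10 after the GC and length correction, and 3 and 12 of 15 without LΔRbfox2 livers 3 and 4), and only *Slc22a18*, an orphan organic cation transporter-like gene, had an unadjusted *P* under 0.05. It was at 42.1 to 47.0 CPM in LWT and 33.3 to 39.3 CPM in LΔRbfox2 livers, a log2 fold change of −0.32 (edgeR, unadjusted *P* = 0.0419, adjusted *P* = 0.504), and −0.35 without LΔRbfox2 livers 3 and 4 (unadjusted *P* = 0.108). Of 9 other *Abcb* genes 8 were tested, 3 above and 5 under 0 (5 above and 3 under after the GC and length correction, 1 and 7 with library totals), and *Abcb11*, the bile salt export pump, was at 127 to 232 CPM in LWT and 104.1 to 181 CPM in LΔRbfox2 livers.

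Of 8 other *Abcc* genes, 6 were tested and all 6 had a log2 fold change under 0, with a median of −0.42, which was −0.20 after the correction for GC content and gene length and −0.22, with 5 under 0, without LΔRbfox2 livers 3 and 4. None had an unadjusted *P* under 0.05. *Abcc6*, the pump whose loss in humans causes ectopic calcification, was at 110.3, 38.9, 45.4 and 117 CPM in LWT livers and 50.8, 72.5, 34.4 and 34.1 CPM in LΔRbfox2 livers, again highest in LWT livers 1 and 4 and LΔRbfox2 liver 2. Of 5 other *Abcg* genes 4 were tested, and *Abcg8*, a canalicular pump for cholesterol and plant sterols that works as a pair with ABCG5, was at 35.1 to 69.2 CPM in LWT and 32.3 to 40.3 CPM in LΔRbfox2 livers (log2 fold change −0.53, edgeR unadjusted *P* = 0.0325, adjusted *P* = 0.504). Without LΔRbfox2 livers 3 and 4 its log2 fold change was −0.46 (unadjusted *P* = 0.133). *Slc10a1*, the sodium-dependent bile acid carrier NTCP, was at 269 to 347 CPM in LWT and 252 to 362 CPM in LΔRbfox2 livers. *Slc47a1*, which exports organic cations, was at 60.0 to 76.3 CPM in LWT and 35.7 to 61.8 CPM in LΔRbfox2 livers (log2 fold change −0.46, edgeR unadjusted *P* = 0.0560). The organic solute transporter genes *Slc51a* and *Slc51b* were not tested, with 0 counts and at most 18 counts per liver.

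Of 12 genes for nuclear receptors and other regulators of drug transport, all were tested, 4 had a log2 fold change above 0 and 8 under 0 (6 and 6 after the GC and length correction, 2 and 10 with library totals). Only *Nr1i2* had an unadjusted *P* under 0.05, and it encodes the pregnane X receptor (PXR). *Nr1i2* was at 52.8, 49.7, 58.7 and 62.7 CPM in LWT livers and at 43.6, 49.1, 42.8 and 40.1 CPM in LΔRbfox2 livers, all 4 under the LWT livers. Its log2 fold change was −0.35 (edgeR, unadjusted *P* = 0.0396, adjusted *P* = 0.504), and −0.29 without LΔRbfox2 livers 3 and 4 (unadjusted *P* = 0.185). *Cyp3a11*, a classical PXR target, was at 974 to 2426 CPM in LWT livers and 1845 to 4758 CPM in LΔRbfox2 livers, a log2 fold change of 1.06 (edgeR, unadjusted *P* = 0.0130, adjusted *P* = 0.504), and 0.58 without LΔRbfox2 livers 3 and 4 (unadjusted *P* = 0.196). *Alas1*, which encodes the rate-limiting enzyme of haem synthesis and responds to the same receptors, averaged 589 CPM in LWT and 220.2 CPM in LΔRbfox2 livers, all 4 under the LWT livers, a log2 fold change of −1.42 (edgeR, unadjusted *P* = 0.0030, adjusted *P* = 0.504). Of the 14 xenobiotic response genes tested, *Cyp3a11* and *Alas1* were the 2 with an unadjusted *P* under 0.05, 1 higher and 1 lower. Over all genes tested, 7.95% were higher and 1.83% lower at that threshold. Of 7 genes for scaffold, anchoring and other proteins of the cell membrane, 0 had an unadjusted *P* under 0.05. Their log2 fold changes were above 0 for 2 and under 0 for 5 (0 and 7 with library totals). *Slc9a3r2* lay wholly lower in LΔRbfox2 livers, at 4.86 to 5.96 against 6.01 to 7.96 CPM, as did 1.23% of all genes tested.

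Markers of hepatocytes, of their zones and of other liver cells were read beside the transporters. Over all genes tested, 7.95% were higher and 1.83% lower in LΔRbfox2 livers at an unadjusted *P* under 0.05 (edgeR). The counts of such genes in the lists below stand beside these shares. The 8 hepatocyte markers had a median log2 fold change of 0.26, which was 0.011 with library totals. Summed cholangiocyte markers were at 14.7 to 25.9 CPM in LWT and 16.6 to 61.2 CPM in LΔRbfox2 livers. The sum was highest in LΔRbfox2 liver 3, where *Spp1* alone was at 55.25 CPM. Kupffer cell markers summed to 55.5 to 97.3 CPM in LWT and 31.1 to 65.9 CPM in LΔRbfox2 livers, sinusoidal endothelial markers to 63.6 to 81.1 and 54.5 to 72.8 CPM, and stellate cell markers to 65.8 to 134 and 83.6 to 129 CPM. Of the 6 Kupffer cell markers, 2 had a log2 fold change above 0 (*Marco* the higher, at 0.48) and 4 under 0. Their median was −0.18, and without LΔRbfox2 livers 3 and 4 all 6 were under 0. Among them *Clec4f*, a lectin gene of these macrophages, was at 26.2, 23.8, 37.02 and 23.8 CPM in LWT livers and 23.0, 12.6, 20.2 and 11.1 CPM in LΔRbfox2 livers, all 4 under the LWT livers. Its log2 fold change was −0.73 (edgeR, unadjusted *P* = 0.0207, adjusted *P* = 0.504), −0.94 with library totals and −0.67 without LΔRbfox2 livers 3 and 4 (unadjusted *P* = 0.0718). Of the 5 erythroid markers tested, 4 had an unadjusted *P* under 0.05, the globin genes *Hbb-bs*, *Hbb-bt*, *Hba-a1* and *Hba-a2*, with log2 fold changes of 1.38, 1.27, 0.68 and 0.69. Without LΔRbfox2 livers 3 and 4 these were 0.59, 0.51, 0.29 and 0.30, with unadjusted *P* values from 0.168 to 0.290. With library totals *Hba-a1* and *Hba-a2* had unadjusted *P* values of 0.0990 and 0.0956, and after the GC and length correction of 0.0599 and 0.0827. The part of cell make-up in the transporter values was not tested. Of 8 pericentral genes 5 were under 0 and of 8 periportal genes 5 were above 0, while with library totals 7 and 6 were under 0. *Slc1a2*, a pericentral glutamate carrier, had the only unadjusted *P* under 0.05 among them (log2 fold change −1.16, unadjusted *P* = 1.2e-04, adjusted *P* = 0.504, edgeR). DESeq2 gave it an adjusted *P* of 0.000125, past the threshold, and limma-voom one of 0.57. *Slco1a1* being known as male-predominant, 8 other male-predominant genes were read with it, 3 above and 5 under 0 (median −0.15, and 1 above and 7 under after the GC and length correction), of which 1 had an unadjusted *P* under 0.05, *Mup20*, a major urinary protein gene (log2 fold change 0.95, edgeR unadjusted *P* = 0.0173). *Mup20* was at 0.17 after that correction (unadjusted *P* = 0.469) and at 0.44 without LΔRbfox2 livers 3 and 4 (unadjusted *P* = 0.247). Of the female-predominant genes 6 were tested, 5 above and 1 under 0 (median 0.50, and 3 and 3 after the correction), and *Cyp3a44* had an unadjusted *P* under 0.05, at 0.460 to 0.914 CPM in LWT and 0.562 to 6.81 CPM in LΔRbfox2 livers, highest in LΔRbfox2 liver 4. Its log2 fold change was 1.89 (edgeR, unadjusted *P* = 0.0213), and 0.21 without LΔRbfox2 livers 3 and 4 (unadjusted *P* = 0.659).

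For the 3 members of widest spread, the genes of most similar pattern were found by the root mean square difference of centred log2 CPM over the 8 livers. For *Abcc2* these were *Sap130*, a subunit of a histone deacetylase complex, *Trim41*, a ubiquitin ligase gene, and *Zzef1*, at 0.057, 0.065 and 0.069, where the median over all genes was 0.57. *Sap130* was at 14.5, 6.79, 7.80 and 14.3 CPM in LWT livers and at 7.68, 10.7, 5.38 and 5.98 CPM in LΔRbfox2 livers. For *Slco1a1* they were *Ccdc167*, *AI597479* and *Fam102b*, at 0.11, 0.15 and 0.16 (median over all genes 0.53), and all were highest in LΔRbfox2 liver 4. For *Slc22a7* they were *Dennd1c*, *Ngef* and *Gm25072*, at 0.29, 0.29 and 0.33 (median over all genes 0.73).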

How the data were processed

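RNA-seq of 8 livers, 4 LWT and 4 LΔRbfox2, was used. The authors enriched poly(A) RNA from total RNA of high integrity, sequenced 100 base reads from both ends and used TopHat2 (version 2.0.11, first-strand library type) to align them to GRCm38. The counts deposited by the authors are whole numbers of reads per gene from featureCounts, without normalization. The version, strand and multi-mapping settings of featureCounts are not given in the sources used here. Each column was matched to its sample by its name in the labels.

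Gene names, positions and lengths came from GENCODE M21, which matched 45143 of 46078 identifiers. The tests used edgeR 4.0.16 in R 4.3.3. After filterByExpr (at least 10 counts, total at least 15) 13856 genes remained. Libraries were normalized by TMM, and genotypes were compared by glmQLFit and glmQLFTest. *P* values were adjusted over all genes tested by Benjamini–Hochberg, at a threshold of 0.05. Log2 CPM used a prior count of 2. Standard errors and 95% intervals came from limma-voom (limma 3.58.1) and belong to its own estimates, which differ from those of edgeR. Permutation tests were exact and two-sided over 70 splits. CPM per kb used the union of exons. Within each genotype the libraries differed beyond sampling noise (chi-square per degree of freedom of at least 97.8). Promoter sequences are from RefSeq on GRCm38.p6. The scripts were tested on simulated data. Python 3.11.15 and matplotlib 3.10.9 drew the figures.

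The members and gene lists were chosen with earlier results of these data known. Genes named in the text are the 9 members, the 3 genes of nearest pattern for the 3 members of widest spread, and, from families and lists, all tested genes at an unadjusted *P* under 0.05 and some of the 3 of largest change in a list. *Slc51a* and *Slc51b* are named for their role, as untested, and neighbouring or overlapping genes for their position. Alternatives were DESeq2 (1.42.0) and upper-quartile size factors in edgeR, the DESeq2 and limma-voom tests, other filters, robust estimation, the replicate number as a block, a lowess correction for GC content and length (span 0.3), both together, stricter thresholds, the longest transcript as the length, and each liver left out. Library totals, and leaving out the 2 livers of lowest TMM factor, were added after seeing the data. Splicing, proteomics, lipidomics and other diets were not analysed here.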

Additional observations from a re-analysis of the deposited data

Results flagged for a closer look

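In all, 30 groups of 4 livers were examined (the 9 members, *Rbfox2* and 5 totals, in each genotype). Of these, 5 held a liver far from the other 3 of its genotype, beyond Dixon's 95% critical value. Independent groups would give about 1 in 20 by chance, or 1.5. These groups are not independent, since they share their livers and the summed export level is made of members. The 5 and the 1.5 therefore do not measure an excess. *Slco1a1* stood at 364.6 CPM in LΔRbfox2 liver 4, with the other 3 at 138 to 163 CPM. *Abcc3* was at 226.8 CPM in LΔRbfox2 liver 2, with the others at 104.5 to 121 CPM. *Abcb4* was at 380.8 CPM in the same LΔRbfox2 liver 2, with the others at 257 to 275 CPM, and in LWT liver 2 it was low at 271.5 CPM, with the others at 319 to 328 CPM. The summed export level was 123.6 CPM per kb in LΔRbfox2 liver 2, with the others at 74.9 to 81.0 CPM per kb.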

How the results depend on the processing

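Over 180 values of the members under other settings, 162 kept their direction, 18 reversed and 0 passed the adjusted threshold. With the correction for GC content and gene length, the log2 fold change was −0.026 for *Slco1a1*, −0.064 for *Slco1a4* and 0.066 for *Abcb4*. With the replicate block as well, these were −0.086, −0.10 and 0.067. With library totals they were −0.028 for *Slco1a1* and −0.14 for *Slco1a4*. Without LΔRbfox2 livers 3 and 4 they were −0.22 for *Slco1a1*, −0.096 for *Slco1b2*, 0.019 for *Abcc3* and 0.057 for *Abcb4*. With 1 liver left out, *Slco1a1* ran from −0.16 to 0.41, *Slco1a4* from −0.039 to 0.22 *Slc22a7* from −0.77 to −0.095 and *Abcg2* from −0.17 to 0.018. *Abcc2* stayed under 0 in all 20 alternatives, from −0.76 to −0.27. The cause of the reversals was not tested. Without LWT liver 2, 1 member (*Abcc2*) had an unadjusted *P* under 0.05 in edgeR, where 2531 genes over all did. Without LΔRbfox2 liver 2, 3 members (*Slco1b2*, *Abcc2* and *Abcc3*) did, where 3475 genes over all did. With every liver kept, 1356 genes and 0 members were at that threshold. Over all genes such calls ranged from 404 to 3475 as single livers were left out, so these member calls are not particular to the members. DESeq2 called 10 genes at the adjusted threshold where edgeR called 0. The replicate block moved genes at an unadjusted *P* under 0.05 from 1356 to 335 and left 0 members past the adjusted threshold. Same-numbered livers are of different genotypes, and the labels link them by a number alone, without saying whether they share anything else. The correlations of their deviations were 0.13, −0.61, 0.12 and −0.51.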
